A study of Mus musculus with 54 samples.

Results

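The genes described here encode receptors for serotonin, dopamine, noradrenaline and adrenaline, acetylcholine, and the opioid peptides. They were picked by symbol rather than by a cut on a measured value, with earlier results of these data known. Taken were the protein-coding rows named Htr1 to Htr7 without Htr3a, Drd3 to Drd5, and all muscarinic Chrm and nicotinic Chrn genes. The 4 opioid genes Oprd1, Oprk1, Oprm1 and Oprl1 were included, with the adrenergic Adra1, Adra2 and Adrb genes apart from Adra2c. The pattern found 49 genes among the 47069 of the count table, with 13 serotonin, 3 dopamine, 5 muscarinic, 16 nicotinic, 4 opioid and 8 adrenergic receptor genes. RNA-seq of polyA RNA covered the cortex, striatum and cerebellum of 18 mice aged 8 weeks on a C57BL/6 background, with 1 library for each mouse and region. The 10 Mbd5+/GT mice carried 1 hypomorphic Mbd5 allele, made by a gene-trap insertion in the second intron that came from a single embryonic stem cell line, and were heterozygous in every cell. The 8 WT controls were littermates without the trap. Neither genotype received any agent. Females and males came from 3 litters, and the genotypes were not balanced in litter 2, which held 4 Mbd5+/GT males and 1 WT male. The comparisons ask in which region each receptor gene is transcribed, and whether its level moves when Mbd5 is reduced. Levels are given as CPM (counts-per-million), the reads of a gene scaled to the same total of counted reads in every library, and as CPM per kilobase of exon where genes are set against each other. Where 3 CPM values follow a region, they are the lowest, the median and the highest library of the group, over 8 WT or 10 Mbd5+/GT mice.

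Most of these receptors are G protein-coupled. Those coupled to Gs raise cyclic AMP, those coupled to Gi lower it and open potassium channels, and those coupled to Gq release calcium from internal stores. Nicotinic receptors and the serotonin Htr3 receptors are instead ion channels built from several subunits, with neuronal subunits and a separate muscle set. The striatum receives dense dopamine input and holds its own cholinergic interneurons, the cortex is reached by all of the monoamine and cholinergic projections, and the cerebellum has sparse dopaminergic input.

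Several members lie next to each other in the genome. In GRCm38, Chrna5 (chromosome 9, 54980880 to 55007779, plus strand), Chrna3 (chromosome 9, 55010111 to 55026562, minus strand) and Chrnb4 (chromosome 9, 55028154 to 55048779, minus strand) form a cluster of nicotinic subunit genes, with 2331 bases between the first pair and 1591 between the second. Chrnb3 and Chrna6 are separated by 3481 bases on chromosome 8, and the muscle genes Chrnd and Chrng by 4586 bases on chromosome 1. The 250 bases before the RefSeq start (GRCm38.p6) are printed for Chrna5 and Chrna3, whose levels took different courses between regions although the genes are neighbours, and for Chrm4 and Chrnb2, of which the first was far lower and the second higher in cerebellum than in the forebrain. They run 5′ to 3′ on the strand of the gene, at chr9:54980630-54980879 (plus), chr9:55026563-55026812 (minus), chr2:91921939-91922188 (plus) and chr3:89764633-89764882 (minus). Capitals mark matches to GGGCGG (the GC box), to CAGCTG (an E-box) or to the TATA-box letters TATAAA, each searched on both strands, so that a match on the other strand shows as the reverse complement.
Chrna5: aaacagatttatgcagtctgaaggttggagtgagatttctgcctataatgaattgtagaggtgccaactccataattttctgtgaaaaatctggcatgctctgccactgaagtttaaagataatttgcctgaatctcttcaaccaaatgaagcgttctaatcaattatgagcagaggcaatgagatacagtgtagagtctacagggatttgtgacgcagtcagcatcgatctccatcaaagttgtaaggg
Chrna3: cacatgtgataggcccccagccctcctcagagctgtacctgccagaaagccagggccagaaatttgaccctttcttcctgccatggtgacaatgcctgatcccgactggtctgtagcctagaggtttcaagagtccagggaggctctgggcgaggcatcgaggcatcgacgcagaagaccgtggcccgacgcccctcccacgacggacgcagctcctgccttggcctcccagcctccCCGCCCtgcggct
Chrm4: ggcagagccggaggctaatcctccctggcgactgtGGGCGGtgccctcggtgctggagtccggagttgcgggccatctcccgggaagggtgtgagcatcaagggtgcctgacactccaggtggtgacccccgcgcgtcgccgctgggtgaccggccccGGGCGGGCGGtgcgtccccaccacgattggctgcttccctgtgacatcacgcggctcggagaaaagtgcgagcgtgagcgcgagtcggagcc
Chrnb2: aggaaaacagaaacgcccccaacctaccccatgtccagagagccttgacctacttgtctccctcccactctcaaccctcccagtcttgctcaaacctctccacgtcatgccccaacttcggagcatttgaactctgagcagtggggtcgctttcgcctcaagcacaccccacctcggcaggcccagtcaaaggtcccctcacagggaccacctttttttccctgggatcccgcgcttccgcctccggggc
The window of Chrna3 held 1 GGGCGG match, that of Chrm4 held 3, of which 2 overlap, and those of Chrna5 and Chrnb2 held none of the letters searched. Chrna5 and Chrna3 differed in base composition, with 40% and 63.2% G and C. RefSeq windows were matched for 37 of the 49 members. GGGCGG was found in 16 of these 37 windows (43.2%) against 32.9% of 27025 windows of all genes, CAGCTG in 7 (18.9%) against 12.8%, and TATAAA in 3 (8.11%) against 13%. CAGCTG lay in the windows of Chrna1, Chrna9, Chrnb4, Chrne, Chrng, Htr2b and Htr5a.

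Between 25295973 and 49027399 reads per library fell on genes (median 29073866). Mbd5 itself ran from 47.8 to 73.9 CPM in WT cortex and from 40.4 to 52.0 in Mbd5+/GT cortex, and was lower in Mbd5+/GT mice in each region (log2 fold changes -0.49, -0.51 and -0.34 in cortex, striatum and cerebellum, adjusted p at most 0.0091, by the quasi-likelihood test of edgeR, Benjamini-Hochberg adjusted). Summed markers of each region's neurons were high in its own libraries, but in 4 libraries they were far below the median of the region: the striatum libraries of WT mice M754 and M761 (155 and 458 CPM over striatal projection neuron markers, median of WT 2890), and the cerebellum libraries of WT mouse M754 and Mbd5+/GT mouse M755 (1776 and 181 CPM over cerebellar neuron markers, median of WT 5717). Hindbrain Hox genes, which are silent in cerebellum, summed to 20.9 to 116 CPM in 4 cerebellum libraries (WT M754 and M761, Mbd5+/GT M755 and M756) and to at most 1.23 CPM in the other 14. Gpr151, a marker of the medial habenula, stood above 3 times its region's median in 4 libraries: cortex of Mbd5+/GT mice M755 and M758, striatum of Mbd5+/GT mouse M758 and WT mouse M762. Summed habenular markers, Gpr151 included, were 135 and 132 CPM in cortex M755 and M758. They were 39.7 CPM in striatum M758 (median of its group 41.7) and 89.8 in striatum WT M762 (median 47.3). Striatum WT M754 had 87.5 CPM of them with 0.358 CPM of Gpr151. M758 also had 158 and 272 CPM of thalamic and 120 and 103 CPM of hypothalamic markers in cortex and striatum. Medians of its groups were 50.05, 57.9, 2.29 and 5.72 CPM in that order. Striatal projection neuron markers in cortex libraries summed to 127 to 1411 CPM (median 929.6 in WT and 425 in Mbd5+/GT mice). Cortical excitatory neuron markers summed to 288.7 to 1002 CPM in WT striatum libraries (median 682.7), against 760.6 to 1534 CPM in WT cortex (median 1059). In Mbd5+/GT mice the medians of these cortical markers were 726.2 CPM in striatum and 1199 in cortex. Differences between regions are also given without the low-marker or the high-Gpr151 libraries where that moved a printed value by about 1.5 times or more. WT M754 was the highest WT cerebellum library for 30 of the 47 members with a read there, and Mbd5+/GT M755 the highest of its group for 33 of 46. The 4 libraries short of their own markers are the low-marker libraries in what follows. The striatal marker list holds Drd1 and Drd2 and no gene described here. In bulk tissue, fewer cells of a type and less RNA per cell cannot be told apart.

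**Figure D1:**
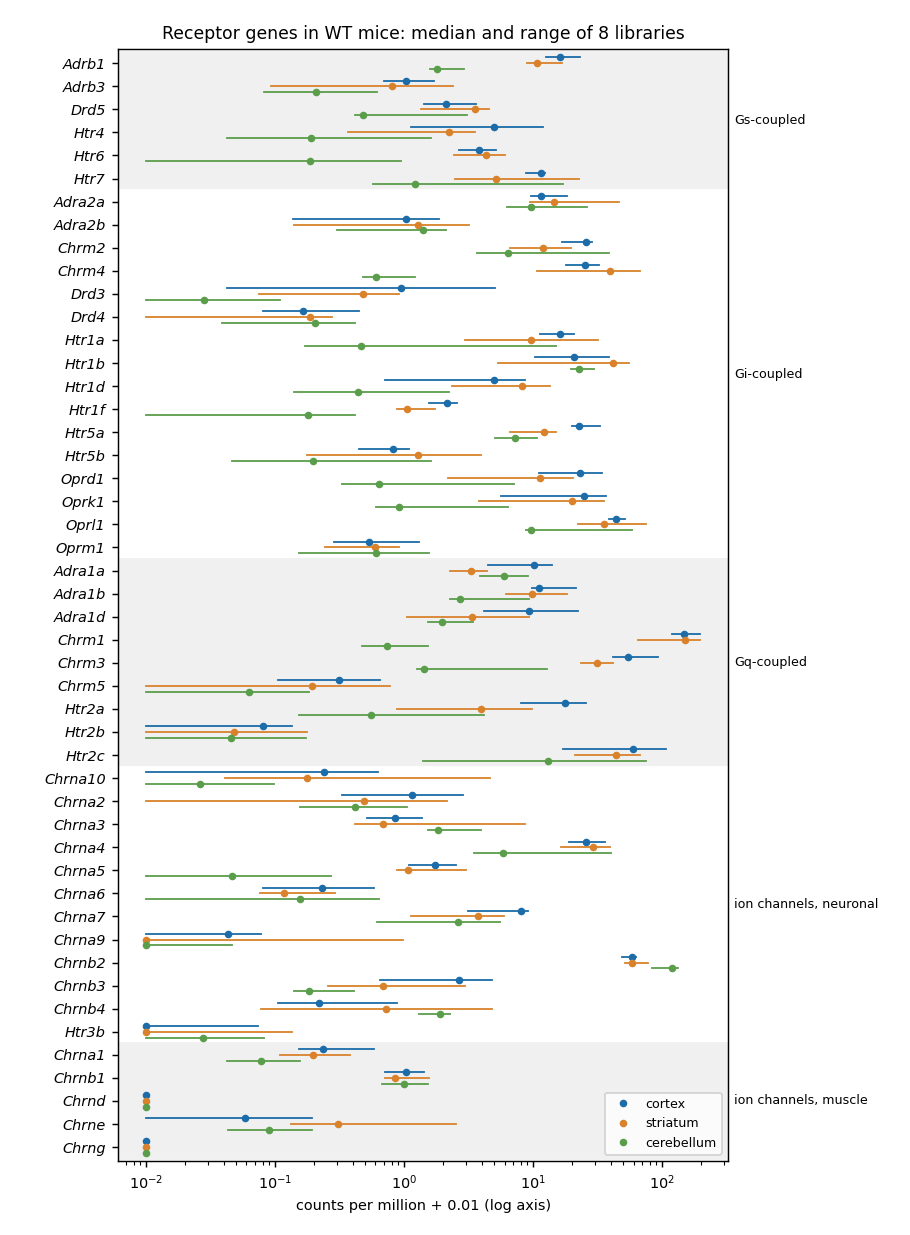
Each row is 1 of 48 receptor genes, and the 3 horizontal bars in a row span the lowest to the highest of the 8 WT libraries of cortex, striatum and cerebellum on a log axis of CPM plus 0.01, with a dot at the median. Chrm1 has the widest gap between the cerebellum and the other regions (median 0.721 against 147 and 149 CPM), and Chrnb2 is the highest gene of the set in cerebellum.

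Per kilobase of exon, muscarinic receptors headed the forebrain. In WT cortex the highest medians were those of Chrm1 (22.7 CPM per kilobase), Chrm4 (17.4), Oprl1 (11.7) and Chrm3 (8.74). In WT striatum Chrm4 came first (27.3), followed by Chrm1 (23.0), Oprl1 (9.49) and Htr1b (8.85). Cerebellum was led by Chrnb2 (14.1), the beta subunit of the main brain nicotinic receptor, ahead of Htr1b (4.84) and Oprl1 (2.57). Chrm1 and Chrm4 in striatum did not separate from each other beyond their spread: their libraries ran from 64.5 to 197 and from 10.8 to 67.6 CPM, which on the per-kilobase scale overlap. The annotated exons of Chrm4 span 1440 bases, 1437 of them coding, and those of Chrm1 6487, with 1380 coding. The per-kilobase rank of Chrm4 therefore depends on this annotation, and in CPM Chrm4 was lower than Chrm1. By median, 29 members were highest in cortex, 10 in striatum and 8 in cerebellum in WT mice, and 2 had a median of 0 in every region.

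At the other end, 5 members were too low to test between WT regions. Chrnd had no count in any of the 54 libraries, and Chrng had 1 read in 1 library. Both are muscle subunits, delta and gamma. Chrna9, a subunit of cochlear hair cells, had 78 reads in all, 29 of them in 1 library. Htr3b, the partner of the Htr3a channel subunit, had 40 reads over 23 libraries with at most 4 in any. Htr2b, a Gq-coupled receptor best known from heart valves and gut, had 91 reads with at most 5 in a library. A count was present in every library for 34 of the 49 members.

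The cerebellum stood apart from both forebrain regions. Against WT cortex, 29 of the 44 members tested were called lower and 2 higher in cerebellum, where a call needed an adjusted p under 0.05 (edgeR's quasi-likelihood test, Benjamini-Hochberg adjustment over all genes) and at least a 2-fold difference. Of all 19219 genes tested, 15.6% were called lower in cerebellum by this rule and 8.59% higher. The median log2 fold change was -1.63 over the members and 0.02 over all genes. Against WT striatum, 25 members were called lower and 0 higher, with 17.4% and 12% of all genes called in these directions and medians of -1.56 and -0.05. The 2 contrasts share the cerebellum libraries. All 5 muscarinic genes were called lower than in cortex, and so were 8 of 11 serotonin, 3 of 4 opioid, 4 of 8 adrenergic, 2 of 3 dopamine and 7 of 13 nicotinic genes tested. By coupling, 6 of 7 Gs, 10 of 16 Gi and 6 of 8 Gq receptors were called lower than in cortex, and 5, 9 and 5 lower than in striatum. Of the 10 neuronal channel subunits tested, 6 were called lower and 2 higher than in cortex. The 14 members with a single coding exon included 10 called lower than in cortex, and the other 30 included 19. In WT mice the libraries low in the markers of their region were cerebellum M754 and striatum M754 and M761. Of the cerebellum and cortex libraries this leaves out only cerebellum M754, the highest WT cerebellum library for 30 of 47 members. Without these libraries, all 29 members called lower than in cortex and 22 of the 25 called lower than in striatum had a lower value still. Medians over these members went from -2.92 to -3.51 and from -2.59 to -2.90. In that fit 31 members were lower and 1 higher than in cortex (17% and 8.76% of all genes), and 26 lower and 0 higher than in striatum (18.3% and 12.5%). In the fit with each mouse as a block, Htr2c and Htr5b were called lower than in cortex as well, and Htr7 lower than in striatum.

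**Figure D2:**
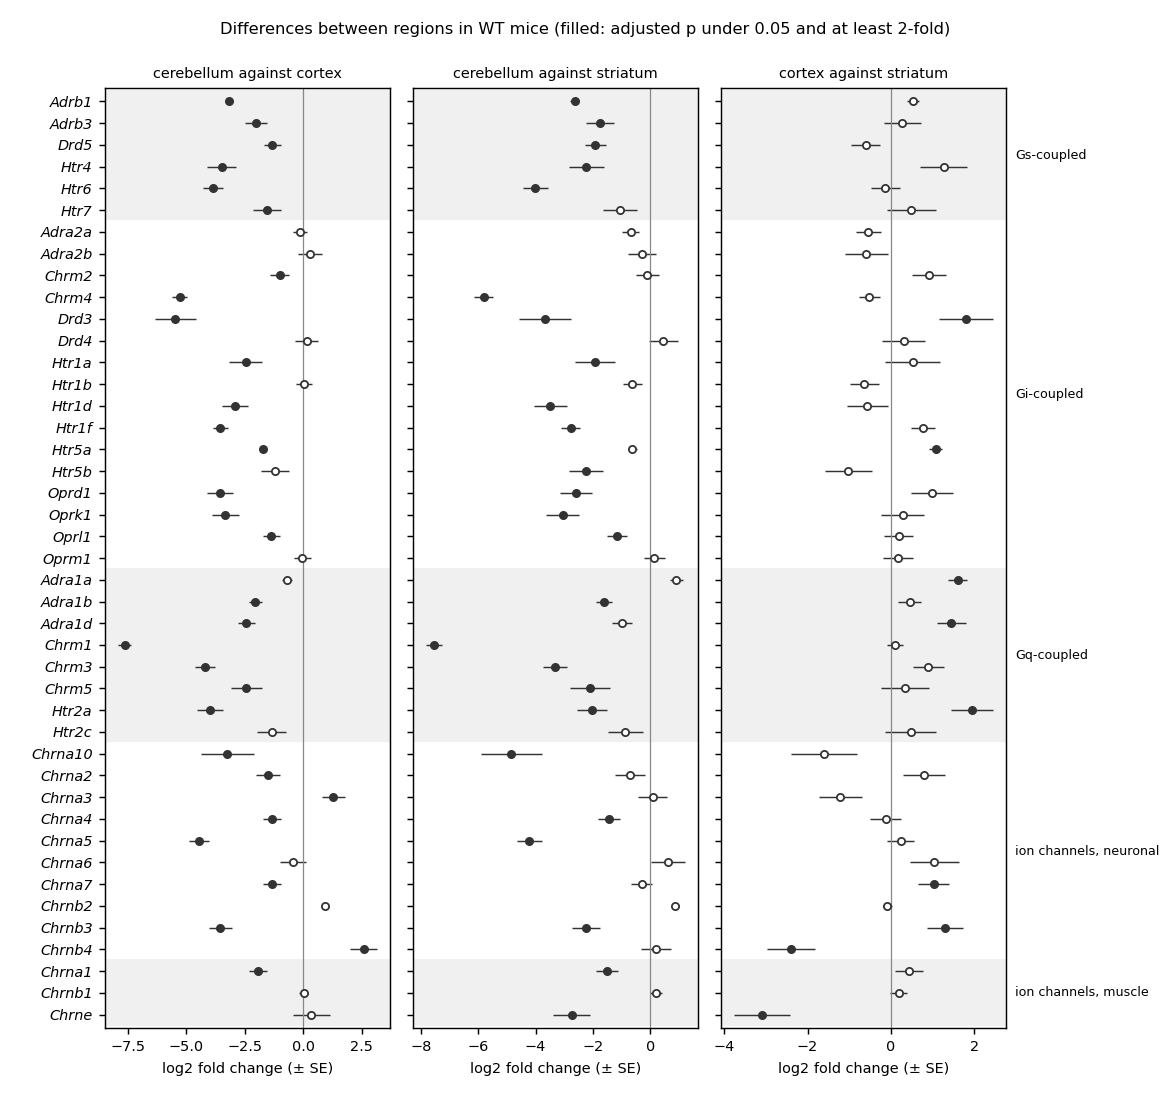
The panels give the log2 fold change (horizontal axis, bars are ± 1 SE) of 43 members tested in WT mice, as rows ordered by coupling, for cerebellum against cortex, cerebellum against striatum and cortex against striatum. Filled points are called, and most filled points of the first 2 panels lie left of 0, with Chrm1 farthest at -7.64 and -7.54.

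Chrm1, the Gq-coupled M1 receptor of forebrain principal neurons, showed the largest difference. Its CPM were 119, 147 and 195 in WT cortex, 64.5, 149 and 197 in WT striatum, against 0.464, 0.721 and 1.51 in WT cerebellum, so every forebrain library lay far above every cerebellar one. The log2 fold change was -7.64 (SE 0.27, adjusted p = 4.7e-17) against cortex, a 199.7-fold difference, and -7.54 (SE 0.27, adjusted p = 5.4e-17) against striatum. Chrm4, the Gi-coupled M4 receptor found on Drd1-type striatal neurons, had 17.8, 25.1 and 32.2 CPM in cortex, 10.8, 39.3 and 67.6 in striatum, against 0.471, 0.599 and 1.20 in cerebellum. Its groups did not overlap either, at -5.28 (SE 0.32, adjusted p = 7.9e-13) and -5.81 (SE 0.33, adjusted p = 1.7e-13). Chrm3, another Gq-coupled muscarinic receptor, fell from 54.6 CPM in cortex and 31.3 in striatum to 1.42 in cerebellum by median. Its highest cerebellar library, at 12.7 CPM, was WT M754, which was low in cerebellar markers and carried Hox counts, and the log2 fold change against cortex went from -4.21 to -5.01 without the low-marker libraries. Chrm2, the presynaptic M2 autoreceptor, had 16.9, 25.6 and 28.6 CPM in cortex against 3.68, 6.43 and 38.8 in cerebellum at -1.01 (SE 0.40, adjusted p = 0.033). Its highest cerebellar library was again WT M754, and without the low-marker libraries the value was -1.57 (adjusted p = 0.00018). Against striatum its difference was -0.10 (adjusted p = 0.83), within error. Chrm5, the M5 receptor of midbrain dopamine neurons, was low throughout, at medians of 0.306, 0.183 and 0.0534 CPM, and was called lower in cerebellum than in cortex (-2.43) and striatum (-2.10, or -2.90 without the low-marker libraries).

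**Figure D3:**
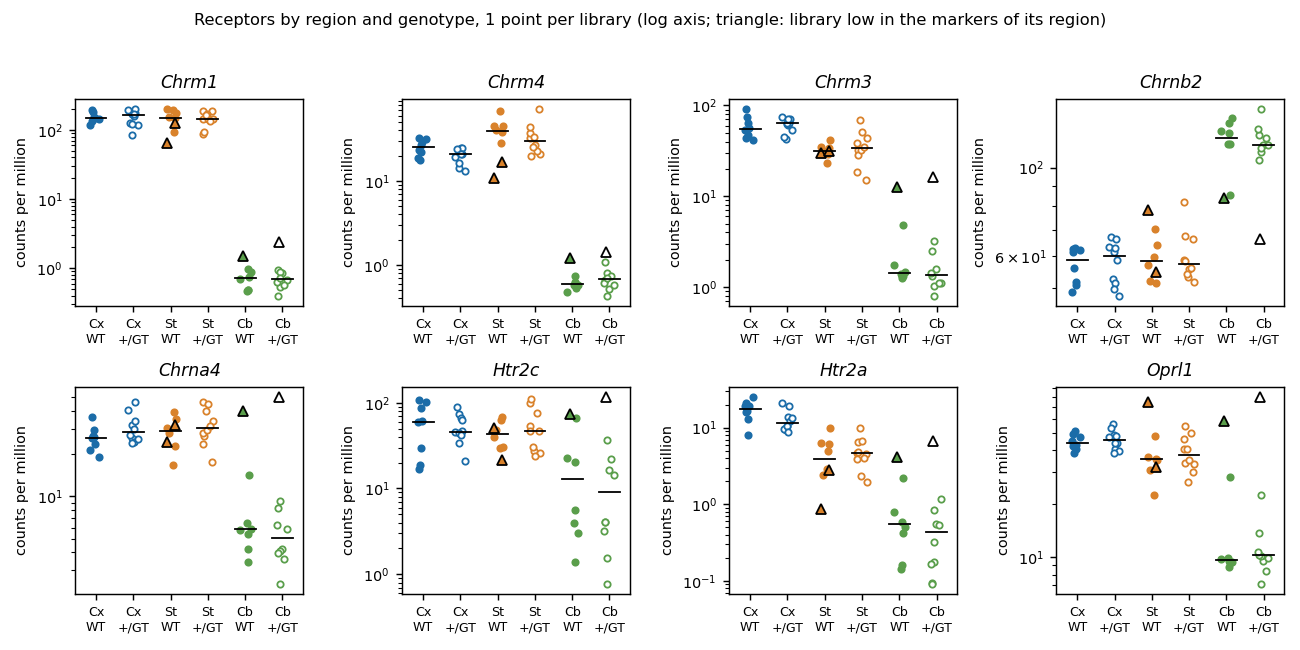
Each panel is a receptor gene and each point a library, in CPM on a log axis, with WT (filled) and Mbd5+/GT (open) mice of cortex (Cx), striatum (St) and cerebellum (Cb) and a line at each group's median. Triangles are the libraries low in their region's markers. In cerebellum these are the highest of their groups for Chrm1, Chrm4, Chrm3, Chrna4, Htr2c, Htr2a and Oprl1. Chrm1 and Chrm4 stay at or under 2.399 CPM in every cerebellar library, these included.

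Of the serotonin receptors, Htr2a, the Gq-coupled target of psychedelic drugs in deep-layer cortical neurons, had 8.06, 17.8 and 25.5 CPM in WT cortex, 0.864, 3.91 and 9.82 in striatum, against 0.143, 0.548 and 4.17 in cerebellum. Cortex and cerebellum did not overlap (-3.98, adjusted p = 1.5e-06), and the value was -4.70 without the low-marker libraries. Htr6, a Gs-coupled receptor enriched in striatum, was 3.82 and 4.32 CPM by median in cortex and striatum and 0.177 in cerebellum, at -3.88 and -4.01, or -4.55 and -4.86 without the low-marker libraries. Htr1f and Htr1d, Gi-coupled receptors bound by triptans, were called lower in cerebellum than in cortex, at log2 fold changes of -3.54 and -2.92 (-3.85 and -3.51 without the low-marker libraries), from cortical medians of 2.14 and 4.94 CPM. Htr4, which is Gs-coupled, had medians of 4.93 CPM in cortex, 2.21 in striatum and 0.181 in cerebellum, at -3.50 and -2.23, or -4.10 and -2.89 without the low-marker libraries. Htr5a, Gi-coupled, was 20, 22.5 and 32.8 CPM in cortex and 5.07, 7.25 and 10.8 in cerebellum (-1.71, adjusted p = 2.4e-09), without overlap, and its difference from striatum, -0.63, was under 2-fold.

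For several serotonin receptors the highest WT cerebellum library was M754, which carried Hox counts. Htr1a, the Gi-coupled somatic autoreceptor and hippocampal and cortical receptor, had a cerebellar median of 0.453 CPM but 14.9 CPM in WT M754. Its log2 fold change against cortex was -2.46, and -3.71 without the low-marker libraries. Htr7, Gs-coupled, had 8.85, 11.4 and 12.4 CPM in cortex and 0.564, 1.21 and 17.0 in cerebellum and gave -1.55 with them and -2.50 without them. Htr5b, a Gi-coupled receptor known from the habenula, had 0.437, 0.812 and 1.09 CPM in cortex and 0.0367, 0.187 and 1.60 in cerebellum and was not called against cortex with all libraries (-1.22, adjusted p = 0.085) and was without them (-2.36, adjusted p = 0.00048). Htr2c, the Gq-coupled receptor that is most abundant in choroid plexus, had 1.39, 13.0 and 74.7 CPM in WT cerebellum and 0.764, 9.16 and 118 in Mbd5+/GT cerebellum. The highest values were those of WT M754 (74.7), WT M761 (65.9) and Mbd5+/GT M755 (118), all with Hox counts. Summed choroid plexus markers ranged from 21.4 to 2533 CPM over WT and 18.2 to 2511 over Mbd5+/GT cerebellum libraries, and were 252 and 2533 CPM in WT M754 and WT M761 and 18.2 CPM in Mbd5+/GT M755. The fourth library with Hox counts, Mbd5+/GT M756, had 1155 CPM of these markers and 36.3 CPM of Htr2c. Among libraries without Hox counts, WT M757 and M762 and Mbd5+/GT M753, M760 and M763 had 1088 to 2511 CPM of the markers. Htr2c ran from 14.2 to 22.4 CPM in them. The remaining libraries without Hox counts had at most 251 CPM of the markers and at most 5.54 CPM of Htr2c. The part of choroid plexus or of the tissue with Hox counts in these values was not tested. Htr2c was called against cortex without the low-marker libraries (-1.85, adjusted p = 0.017) and not with them (-1.35, adjusted p = 0.066). Htr1b, the Gi-coupled terminal autoreceptor, differed from this pattern, with 10.3, 20.6 and 38.5 CPM in cortex, 5.37, 41.8 and 54.9 in striatum, against 19.6, 22.9 and 29.5 in cerebellum. Its cerebellar level lay within the cortical range (0.01, adjusted p = 0.98). Exons of the antisense gene D430036J16Rik cover 18% of the exon length of Htr1b, and the strand setting of the counts is not given in the sources used here.

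Among dopamine receptors, Drd5, the Gs-coupled D5 receptor, had 1.41, 2.10 and 3.62 CPM in cortex, 1.33, 3.51 and 4.51 in striatum, against 0.404, 0.472 and 3.09 in cerebellum. It was called lower in cerebellum (-1.32 and -1.92), although WT M754 reached the forebrain level, and was at -1.93 and -2.62 without the low-marker libraries. About 48.6% of its exon length overlaps Gm26560 on the other strand. Drd3, the Gi-coupled D3 receptor of the islands of Calleja and ventral striatum, was at most 0.0985 CPM in WT cerebellum, where 4 of 8 libraries had no read. In WT cortex it spread from 0.0321 to 5.07 CPM, highest in mice M761 and M752, whose cortex libraries had the 2 highest sums of striatal markers (1411 and 1398 CPM). Its log2 fold changes were -5.48 (SE 0.87, adjusted p = 8.1e-06) against cortex and -3.68 (SE 0.91, adjusted p = 0.0011) against striatum, the latter -4.30 without the low-marker libraries. Drd4, the D4 receptor, was between 0 and 0.437 CPM in all WT libraries and was called in no WT contrast.

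The opioid receptor genes are all Gi-coupled. Oprl1, the nociceptin receptor, was the highest, with 38.5, 44.0 and 51.5 CPM in cortex, 22.3, 35.6 and 74.7 in striatum, against 8.82, 9.64 and 58.7 in cerebellum. The highest cerebellar library, WT M754, exceeded the cortical maximum, and the log2 fold change against cortex was -1.37 with and -1.94 without the low-marker libraries. Oprd1, the delta receptor, had 11.2, 22.9 and 34.2 CPM in cortex and 0.321, 0.626 and 7.08 in cerebellum (-3.57, adjusted p = 7.5e-06, or -4.28 without the low-marker libraries), with no overlap. Oprk1, the kappa receptor for dynorphin, had medians of 24.7, 20.1 and 0.903 CPM in cortex, striatum and cerebellum, and was called lower in cerebellum at log2 fold changes of -3.34 and -3.06, or -3.78 and -3.81 without the low-marker libraries. Oprm1, the mu receptor of morphine and endorphin, stayed between 0.143 and 1.54 CPM in all WT libraries and was called between no pair of regions (adjusted p = 0.93, 0.75 and 0.71). It had 4 to 68 reads per library, and each of its log2 fold changes had a standard error of 0.36.

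Of the adrenergic receptors, Adrb1, the Gs-coupled beta-1 receptor, separated the cerebellum with a small error. It had 12.6, 16.2 and 23.0 CPM in cortex, 9.02, 10.7 and 16.8 in striatum, against 1.58, 1.78 and 2.88 in cerebellum, at -3.17 (SE 0.17, adjusted p = 6.7e-14) and -2.65 (SE 0.17, adjusted p = 1.3e-12). Adrb3 was at most 2.38 CPM and was called lower in cerebellum (-2.02 and -1.75), with 24.9% of its exon length shared with a gene on the other strand. The Gq-coupled alpha-1 receptors Adra1b and Adra1d had medians of 11.1 and 9.30 CPM in cortex and were called lower in cerebellum, at -2.06 and -2.44. Adra1a lay between the forebrain regions in cerebellum, at a median of 5.98 CPM against 10.1 in cortex and 3.26 in striatum, and neither difference reached 2-fold. The Gi-coupled alpha-2 receptors Adra2a (medians 11.4, 14.6 and 9.61 CPM in cortex, striatum and cerebellum) and Adra2b (1.03, 1.28 and 1.39) were called in no WT contrast.

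The nicotinic subunits split. Chrnb2, which assembles with Chrna4 into the common high-affinity nicotine receptor of the brain, had 83.8, 118 and 133 CPM in cerebellum against 48.8, 58.8 and 63.0 in cortex and 51.6, 58.4 and 78.2 in striatum, so no cerebellar library fell into either forebrain range. Its log2 fold changes of 0.93 (SE 0.11, adjusted p = 5.9e-08) and 0.85 (SE 0.11, adjusted p = 2.1e-07) passed the test without reaching 2-fold. Its partner Chrna4 went down, from 18.9, 25.9 and 36.2 CPM in cortex to 3.45, 5.82 and 39.8 in cerebellum, at -1.33 (SE 0.38, adjusted p = 0.0042). The highest cerebellar value of Chrna4 was WT M754, and the log2 fold change was -2.06 without the low-marker libraries. About 16.3% of the exon length of Chrnb2 overlaps Adar on the other strand. Chrna7, the homomeric alpha-7 subunit, had medians of 8.11, 3.73 and 2.59 CPM in cortex, striatum and cerebellum and was lower than in cortex at -1.34 and not separable from striatum (-0.31, adjusted p = 0.47).

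Within the chromosome 9 cluster, Chrna5 and its neighbours differed from cerebellum to cortex in opposite directions. Chrna5, an accessory subunit, had 1.09, 1.71 and 2.53 CPM in cortex, 0.864, 1.05 and 3.02 in striatum, against 0, 0.0360 and 0.262 in cerebellum, with no overlap, at -4.45 (SE 0.43, adjusted p = 3.4e-09) and -4.22 (SE 0.43, adjusted p = 7.5e-09), or -5.08 and -5.02 without the low-marker libraries. Chrna3, which with Chrnb4 forms the ganglionic and habenular receptor, had 1.52, 1.81 and 3.93 CPM in cerebellum against 0.504, 0.834 and 1.36 in cortex. All 8 cerebellar libraries lay above the highest cortical one, and the log2 fold change was 1.29 (SE 0.51, adjusted p = 0.035). It was 1.10 (adjusted p = 0.080) without the low-marker libraries, which ended the call. Leaving out mouse M751, M752, M754, M757 or M759 alone ended it too, with values down to 1.14 (adjusted p = 0.085) without M754. Chrnb4 had 1.30, 1.88 and 2.25 CPM in cerebellum and 0.0961, 0.210 and 0.874 in cortex, again without overlap, at 2.58 (SE 0.58, adjusted p = 0.00055). In striatum both genes were spread by 2 libraries. WT M762, high in Gpr151, had 8.62 CPM of Chrna3 and 4.83 of Chrnb4, and WT M754, low in striatal markers, had 3.06 and 4.10, while the other 6 reached at most 1.20 and 1.22. The 3 regions shared 1 estimate of each gene's spread in the fit. The striatum libraries thus also entered the errors and adjusted p of cerebellum against cortex given above. In cerebellum against striatum Chrna3 and Chrnb4 were at 0.08 (adjusted p = 0.90) and 0.19 (adjusted p = 0.76), and at -0.08 and 0.44 without the low-marker libraries. Without the libraries high in Gpr151, Chrna3 was called higher in cerebellum than in striatum (1.03, adjusted p = 0.017), while Chrnb4 was at 0.70 (adjusted p = 0.22).

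**Figure D4:**
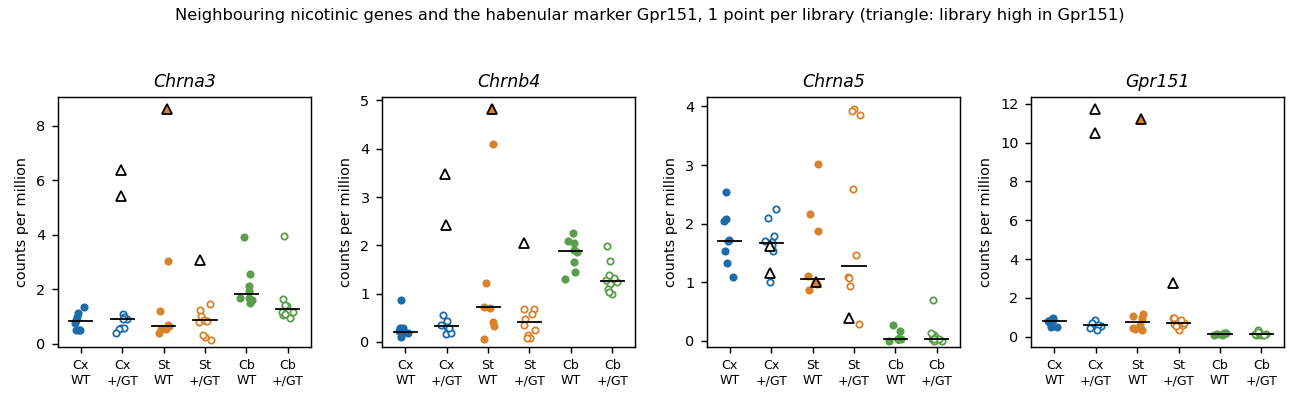
The 4 panels show CPM (linear axis) of the neighbours Chrna3, Chrnb4 and Chrna5 and of the habenular marker Gpr151, 1 point per library, filled for WT and open for Mbd5+/GT mice, with a line at the median of each group. The 4 libraries high in Gpr151 (triangles) include the 2 highest of Chrna3 and Chrnb4 in Mbd5+/GT cortex, the highest of WT striatum and the highest of Mbd5+/GT striatum, while Chrna5 is not raised in them.

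Other nicotinic genes were low. Chrna10, a hair cell subunit, was called lower than in striatum, at -4.84 (SE 1.06, adjusted p = 0.00032), from medians of 0.167 CPM in striatum and 0.0164 in cerebellum. Striatum WT M754 and M761, the low-marker libraries, held 4.65 and 1.96 CPM where the other 6 reached at most 0.333, and without them the value was -2.69. About 39% of its exon length overlaps Art1 on the other strand. Chrnb3, which joins Chrna6 in receptors of dopamine terminals, was lower in cerebellum (-3.56 and -2.26), from medians of 2.68 and 0.678 CPM to 0.172. Chrna6 itself reached at most 0.624 CPM in WT mice and was not called. Chrna2, a subunit of some interneurons, was called lower than in cortex (-1.50) and not lower than in striatum (-0.71, adjusted p = 0.23). Of the muscle subunits, Chrna1 had medians of 0.225, 0.187 and 0.0681 CPM in cortex, striatum and cerebellum and was called lower in cerebellum (-1.95 and -1.51). Chrnb1 had medians of 1.03, 0.838 and 0.995 CPM and was not called. Summed markers of skeletal muscle were 1.31 to 11.8 CPM over WT libraries.

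The libraries of the forebrain regions differed less. Striatum libraries held cortical markers and cortex libraries striatal markers, as given above, and their part in the smaller differences was not tested. Between WT cortex and WT striatum 7 members were called higher in cortex (5.71% of all genes) and 2 higher in striatum (4.47%), with the same numbers without the low-marker libraries (5.75% and 4.6%), of which 7 genes were called in both fits. The median log2 fold change was 0.29 over the members and -0.03 over all genes. Htr2a was highest in cortex relative to striatum, with the CPM given above and a log2 fold change of 1.95 (SE 0.50, adjusted p = 0.0031). Adra1a, with 4.49, 10.1 and 14.0 CPM in cortex and 2.26, 3.26 and 4.41 in striatum, was at 1.60 (SE 0.22, adjusted p = 1.6e-05), and its ranges did not overlap. Adra1d, 4.13, 9.30 and 22.4 against 1.03, 3.35 and 9.30 CPM, was at 1.45 (SE 0.35, adjusted p = 0.0018), with overlap. Drd3 was at 1.80 (SE 0.64, adjusted p = 0.023), a call that ended without the low-marker libraries (1.56, adjusted p = 0.058) and in the fit with each mouse as a block. It also ended without mouse M752 (1.43, adjusted p = 0.097) or M761 (1.24, adjusted p = 0.13). Chrnb3 (1.30), Htr5a (1.08) and Chrna7 (1.03) were the others, and Chrna7 was lost without the low-marker libraries and under the block. Chrm2 and Chrna2 were called higher in cortex without the low-marker libraries (1.18 and 1.52).

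Higher in striatum were Chrne and Chrnb4. Chrne, the adult muscle epsilon subunit, had 0.123, 0.299 and 2.49 CPM in striatum and 0, 0.0489 and 0.182 in cortex, at -3.09 (SE 0.67, adjusted p = 0.00082). Its highest striatal library was WT M761, low in striatal markers, and without the low-marker libraries the log2 fold change was -2.19 (adjusted p = 0.0047). Chrnb4 was at -2.39 (SE 0.58, adjusted p = 0.0020), and at -1.89 without the libraries high in Gpr151. Chrm1 was nearly even between them, at 0.10 (SE 0.19). Chrm4 was higher in striatum by median, at -0.52 (adjusted p = 0.086) with all libraries and -0.80 (adjusted p = 0.00039) without WT M754 and M761, still under 2-fold. Htr1b likewise was -0.64 with all libraries (adjusted p = 0.12) and -0.96 without these (adjusted p = 0.0035).

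The 30 libraries of Mbd5+/GT mice gave the same contrasts in other animals. Against cortex, 27 members were called lower in cerebellum (15.4% of all genes) and 0 higher (8.29%), and these 27 were among the 31 called in WT mice. Against striatum, 25 were lower (16%) and 3 higher (10.3%), the latter Chrna6, Chrnb4 and Drd4, and 23 of these 28 were among the 25 of WT mice. Between cortex and striatum, 5 were higher in cortex (3.19%) and 3 in striatum (3.05%), with 5 of these 8 among the 9 of WT mice. Chrm1 was -7.50 against cortex and -7.40 against striatum, from 0.392, 0.699 and 2.399 CPM in Mbd5+/GT cerebellum. The calls of Chrna3 and Chrnb4 against cortex did not carry over: their log2 fold changes were -0.27 and 0.59. Mbd5+/GT cortex M755 and M758 reached 5.42 and 6.37 CPM of Chrna3 where the other 8 reached at most 1.09, and without the libraries high in Gpr151 the differences were 0.98 (adjusted p = 0.017) and 1.96 (adjusted p = 6.9e-06). Chrna6 was called higher in cortex than in striatum in Mbd5+/GT mice (2.53), from medians of 0.430 and 0.0674 CPM, and Htr1b and Htr1d higher in striatum (-1.37 for Htr1d, and for Htr1b -1.53).

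No receptor gene passed the test between genotypes. In cortex, striatum and cerebellum 43, 42 and 37 members could be tested by edgeR's quasi-likelihood test with surrogate variables, and 0 had an adjusted p under 0.05 in any region, also by DESeq2 with the same surrogate variables. Of all genes, 2 of 18661, 1 of 18546 and 1 of 18160 passed the edgeR test in these regions. At such shares a count of 0 does not set the receptors apart from other genes. In cortex 3 members were higher and 5 lower in Mbd5+/GT animals with a p under 0.05 before adjustment, where 3.96% and 4.51% of all genes were. Striatum had 1 higher and 2 lower (4.24% and 3.2%), and cerebellum 0 higher and 3 lower (0.964% and 1.78%). The median log2 fold changes over the members were -0.04, -0.09 and -0.03 in cortex, striatum and cerebellum, against -0.0042, -0.0099 and -0.0035 over all genes.

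**Figure D5:**
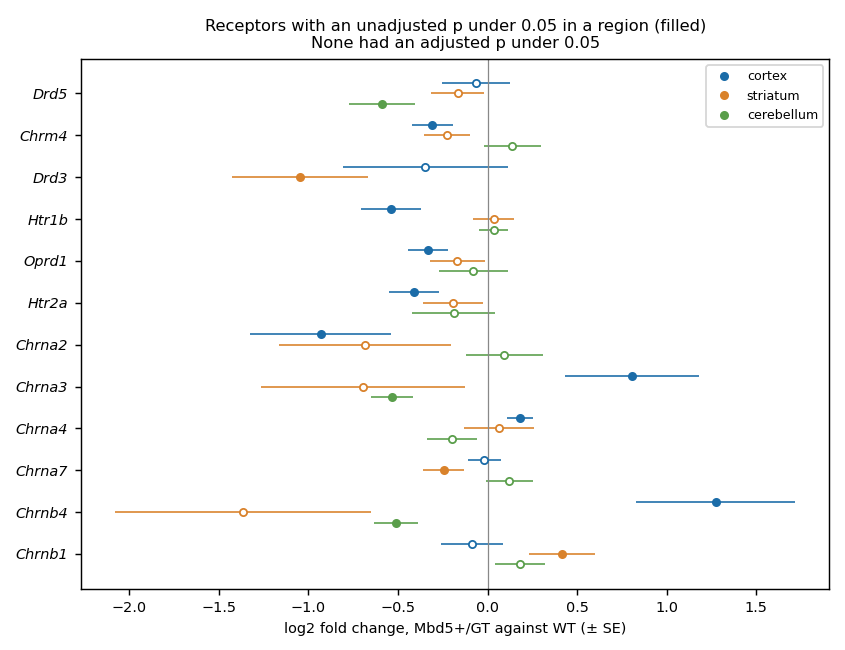
Rows are the 12 receptor genes with an unadjusted p under 0.05 in at least 1 region, and points are log2 fold changes of Mbd5+/GT against WT mice (bars are ± 1 SE) in cortex, striatum and cerebellum, filled where that p was under 0.05. Chrna3 and Chrnb4 lie right of 0 in cortex and left of it in the other regions, and none of the points had an adjusted p under 0.05.

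In cortex the smallest p was that of Htr1b. It had 10.3, 20.6 and 38.5 CPM in WT and 8.17, 12.1 and 25.1 in Mbd5+/GT mice, with overlapping ranges and 9 of 10 Mbd5+/GT mice below the WT median. The log2 fold change was -0.54 (SE 0.17, unadjusted p = 0.0057, adjusted p = 0.41). Differences of mean log2 CPM within litters 1, 2 and 3 were -0.78, -1.03 and -0.76. Litter values here and below are without surrogate variables, unlike the log2 fold changes beside them, and those of litter 2 rest on 1 WT mouse, M765. An exact permutation test on all ways to split the mice, without surrogate variables, gave a 2-sided p of 0.045. The 4 WT cortex libraries highest in Htr1b, of mice M752, M761, M765 and M759, were the 4 with the highest striatal marker sums (1090 to 1411 CPM), and the highest Mbd5+/GT library, M766, was the highest of its genotype in those markers (969.8 CPM). With the striatal marker sum as a covariate in place of the surrogate variables the value was -0.37 (unadjusted p = 0.022). Chrm4 was 17.8, 25.1 and 32.2 CPM in WT and 13.3, 20.96 and 24.98 in Mbd5+/GT cortex, and all 10 Mbd5+/GT libraries lay below the WT median. Its log2 fold change was -0.31 (SE 0.12, unadjusted p = 0.017, adjusted p = 0.49), and -0.19 (unadjusted p = 0.085) with the striatal covariate. Htr2a was at -0.41 (SE 0.14, unadjusted p = 0.0092, adjusted p = 0.44), from medians of 17.8 CPM in WT and 11.4 in Mbd5+/GT mice, with differences of -0.94, 0.03 and -0.26 within the litters. Oprd1 was at -0.33 (SE 0.11, unadjusted p = 0.0094, adjusted p = 0.44), with medians of 22.9 and 17.6 CPM, and was positive in litter 2 (0.44). Chrna2, 0.321, 1.14 and 2.87 CPM in WT and 0.156, 0.352 and 1.28 in Mbd5+/GT mice, was at -0.93 (SE 0.39, unadjusted p = 0.030, adjusted p = 0.52), and at -0.27 without the libraries high in Gpr151. On the higher side, Chrna4 was at 0.18 (SE 0.07, unadjusted p = 0.021, adjusted p = 0.50), with medians of 25.9 and 28.4 CPM.

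Chrnb4 and Chrna3 were higher in Mbd5+/GT cortex by the model, at 1.27 (SE 0.45, unadjusted p = 0.011, adjusted p = 0.44) and 0.81 (SE 0.37, unadjusted p = 0.047, adjusted p = 0.58). In CPM Chrnb4 was 0.0961, 0.210 and 0.874 in WT and 0.163, 0.319 and 3.47 in Mbd5+/GT mice, and Chrna3 0.504, 0.834 and 1.36 and 0.407, 0.912 and 6.37. Mice M755 and M758 alone lay above the WT range of both genes, and they were the 2 cortex libraries high in Gpr151 (11.8 and 10.5 CPM, others at most 0.953), with medial habenula marker sums of 135 and 132 CPM against 60.7 to 97.5 in the other 16. Without them the log2 fold changes were 0.45 (unadjusted p = 0.15) for Chrnb4 and 0.07 (unadjusted p = 0.78) for Chrna3. In that fit none of the 8 cortical members kept an unadjusted p under 0.05, with Htr1b closest at -0.33 (unadjusted p = 0.051). Cortex M758 was also the highest cortex library in summed thalamic and hypothalamic markers (158 and 120 CPM). The part of each tissue in the values of Chrna3 and Chrnb4 was not tested.

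In cerebellum Chrna3 and Chrnb4 were instead lower in Mbd5+/GT mice and had the smallest p of all members. Chrna3 had 1.52, 1.81 and 3.93 CPM in WT and 0.946, 1.28 and 3.97 in Mbd5+/GT mice, and 9 of 10 Mbd5+/GT mice lay below the WT median. Its log2 fold change was -0.53 (SE 0.12, unadjusted p = 0.00018, adjusted p = 0.55). The exception was mouse M755, whose cerebellum library was low in cerebellar markers and carried Hox counts. Without the low-marker libraries the value was -0.55 (unadjusted p = 0.00051), without those with Hox counts -0.46 (unadjusted p = 0.0023), and the differences within litters 1, 2 and 3 were -0.55, -0.40 and -0.39. Chrnb4 had 1.30, 1.88 and 2.25 CPM in WT and 0.984, 1.27 and 1.98 in Mbd5+/GT mice, again with 9 of 10 below the WT median, at -0.51 (SE 0.12, unadjusted p = 0.00049, adjusted p = 0.81). Within litters it was -0.27, -0.33 and -0.65, and the exact permutation p, 2-sided and without surrogate variables, was 0.0052, or 0.0080 over the 3500 splits that keep each litter's numbers. For Chrna3 these were 0.051 and 0.074 by the same exact permutation test. Drd5 was the third, at -0.59 (SE 0.19, unadjusted p = 0.0047, adjusted p = 1.0), with 0.404, 0.472 and 3.09 CPM in WT and 0.304, 0.378 and 2.05 in Mbd5+/GT mice. Without the low-marker libraries it was -0.34 (unadjusted p = 0.11).

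In striatum the nominal members were Drd3, Chrnb1 and Chrna7. Drd3 had 0.0651, 0.471 and 0.903 CPM in WT and 0, 0.320 and 1.13 in Mbd5+/GT mice, from 0 to 36 reads in a library, at -1.04 (SE 0.38, unadjusted p = 0.013, adjusted p = 0.63). Its difference was -1.89 in litter 2 and -0.12 and -0.29 in litters 1 and 3. Chrnb1, the muscle beta subunit, was 0.705, 0.838 and 1.54 CPM in WT and 0.882, 1.26 and 1.50 in Mbd5+/GT mice, and all 10 Mbd5+/GT libraries lay above the WT median. The log2 fold change was 0.42 (SE 0.18, unadjusted p = 0.036, adjusted p = 0.64). Chrna7 was at -0.25 (SE 0.12, unadjusted p = 0.048, adjusted p = 0.67) with surrogate variables and at 0.03 without them, and its medians were 3.73 CPM in both genotypes. Chrnb4 and Chrna3 had wide errors in striatum, at -1.36 (SE 0.71) and -0.69 (SE 0.57), and were at -0.68 and 0.15 without the libraries high in Gpr151.

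The difference of the genotype effect between regions was tested in 1 fit of all 54 libraries without surrogate variables, by the quasi-likelihood test. Of 44 members, the effect differed at a p under 0.05 before adjustment for 3 between cortex and striatum (4.22% of all genes), 3 between cerebellum and cortex (1.11%) and 1 between cerebellum and striatum (2.68%), and 0 members had an adjusted p under 0.05. Chrnb4 led between cortex and striatum, at 3.03 (SE 0.81, unadjusted p = 0.00049, adjusted p = 0.99), and was 1.68 without the libraries high in Gpr151. Chrna3 followed at 2.02 (SE 0.74, unadjusted p = 0.0091, adjusted p = 0.99) and was 0.19 without them. In the fit with each mouse as a block Chrna3 was at 1.11 (unadjusted p = 0.066) and Chrnb4 at 2.49 (unadjusted p = 0.00081). Htr1b was at -0.92 (SE 0.41, unadjusted p = 0.027, adjusted p = 0.99), and at -0.60 (unadjusted p = 0.090) without the low-marker libraries. Between cerebellum and cortex the same genes gave -1.99 (SE 0.79, unadjusted p = 0.015, adjusted p = 1.0) for Chrnb4, -1.56 (SE 0.74, unadjusted p = 0.038, adjusted p = 1.0) for Chrna3 and 0.82 (SE 0.41, unadjusted p = 0.049, adjusted p = 1.0) for Htr1b. Without the libraries high in Gpr151 these were -0.62, -0.31 and 0.78, none at an unadjusted p under 0.05. With the block Chrna3 lost that threshold here too (-1.10, unadjusted p = 0.056) and Chrna2 passed it (1.41, unadjusted p = 0.036). Htr5b was at 2.14 (SE 0.99, unadjusted p = 0.035, adjusted p = 1.0) between cerebellum and striatum. Its cerebellar level in Mbd5+/GT mouse M755, 7.61 CPM against at most 0.598 in the other 9, and WT striatum M762, 3.96 CPM, were the highest of their groups, and the difference was 0.46 without the low-marker libraries and 0.60 in the fit with each mouse as a block.

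The receptors' ligand machinery and partners were read from lists of genes, with values for WT mice unless said otherwise. The 3 related receptors outside the symbol pattern, Drd1, Drd2 and Adra2c, were all called lower in cerebellum than in cortex and than in striatum, led by Drd1, the Gs-coupled D1 receptor, at -7.44 (SE 0.72, adjusted p = 3.9e-09) and -8.56 (SE 0.74, adjusted p = 5.4e-10). Drd2 was higher in striatum than in cortex, at -2.01 (SE 0.74, adjusted p = 0.027). Of the 4 opioid peptide precursors, 3 were called lower in cerebellum than in cortex and 3 than in striatum, with Pdyn, the dynorphin precursor, at -5.66 (SE 0.69, adjusted p = 1.8e-07) and -6.00 (SE 0.70, adjusted p = 7.7e-08). Of 14 genes tested for monoamine synthesis, transport and breakdown, 3 were called higher and 3 lower in cerebellum than in cortex. Slc29a4, a low-affinity monoamine transporter, was at 2.52 (SE 0.31, adjusted p = 1.5e-07) against cortex and 1.93 (SE 0.30, adjusted p = 4.2e-06) against striatum. Hdc, which makes histamine, was at 2.39 (SE 0.33, adjusted p = 8.3e-07) in cerebellum against cortex and at -1.68 (SE 0.32, adjusted p = 0.00027) in cortex against striatum. Dbh was at 1.15 (SE 0.76, adjusted p = 0.18) in cerebellum against striatum, which is within error. In cortex against striatum Hrh2, a histamine receptor, was at 1.03 (SE 0.20, adjusted p = 0.00038) and Tph1 at 0.97 (SE 0.51, adjusted p = 0.12), the latter not past the test. Of 5 acetylcholine genes 3 were called lower in cerebellum than in cortex, 3 of 3 histamine receptors were as well, and 3 of 8 nicotinic chaperones and Ly6 modulators were. None of the 7 receptor kinases and arrestins was called in either direction. Of these 7, 5 had an adjusted p under 0.05, as had 10864 of all 19219 genes tested. In Mbd5+/GT mice the counts called lower than in cortex were 0 of 5 acetylcholine genes, with a median log2 fold change of 0.32 against -2.17 in WT mice, 2 of 3 histamine receptors, 2 of 4 opioid precursors and 3 of 8 chaperones and modulators. That difference between genotypes was not tested over the lists. Striatal cholinergic interneuron markers, a list that shares Chat, Slc18a3 and Slc5a7 with the acetylcholine genes, summed to 116 CPM in Mbd5+/GT cerebellum M755, a low-marker library. The medians were 0.459 CPM in Mbd5+/GT and 0.572 in WT cerebellum, and the highest WT cerebellum library had 35.5. The part of M755 in the difference was not tested.

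Between genotypes 0 genes of these lists had an adjusted p under 0.05, where 2, 1 and 1 of all genes tested did in cortex, striatum and cerebellum. At an unadjusted p under 0.05 cortex held Slc22a3 at -0.50 (unadjusted p = 0.012, adjusted p = 0.44), Penk at -0.51 (unadjusted p = 0.024, adjusted p = 0.50), Pdyn at -0.46 (unadjusted p = 0.029, adjusted p = 0.52), Hrh2 at -0.24 (unadjusted p = 0.034, adjusted p = 0.54) and Adra2c at -0.24 (unadjusted p = 0.033, adjusted p = 0.54) on the lower side. Pomc at 0.72 (unadjusted p = 0.029, adjusted p = 0.52) and Hdc at 0.68 (unadjusted p = 0.032, adjusted p = 0.53) were on the higher side. Cortex M758 was the highest library in both, at 4.99 CPM of Pomc and 6.84 of Hdc where no other cortex library passed 1.64 and 2.50. Its summed hypothalamic markers, a list that holds Hdc, were 120 CPM against at most 22.5 in the others, and their part in these values was not tested. Penk, the enkephalin precursor of striatal neurons, had 46.2, 297 and 586 CPM in WT cortex, where striatal markers spread as given above, and their part in it was not tested. Striatum held Slc22a3 at -0.31 (unadjusted p = 0.020, adjusted p = 0.63). Cerebellum held Lypd1, a Ly6 protein that acts on nicotinic receptors, at -0.32 (unadjusted p = 0.0013, adjusted p = 1.0), and Slc29a4 at -0.12 (unadjusted p = 0.033, adjusted p = 1.0).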

How the data were processed

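RNA-seq was done on 54 libraries, 1 for each of 3 brain regions of 18 mice (8 WT, 10 Mbd5+/GT), grouped by the genotype and tissue labels. The authors deposited raw read counts per Ensembl gene, made with STAR 2.4.2 on GRCm38 after FastQC 0.10.1 per the labels. The strand setting of the counts is not given in the sources used here. Names of 2 striatum libraries are marked as repeated. Beside 47069 genes the table held 92 spike-in rows, which were left out. GENCODE M21 named 46488 of the genes.

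Library totals over genes ran from 25295973 to 49027399 reads. Region contrasts were fitted within each genotype by edgeR 4.0.16 (TMM, robust quasi-likelihood test, R 4.3.3), genes needing more than 4 counts in at least 8 libraries (10 in Mbd5+/GT mice). The 3 regions of a genotype shared 1 fit and 1 estimate of each gene's spread. A call needed a Benjamini-Hochberg adjusted p under 0.05 over all genes and a 2-fold change. Genotype was tested per region with 4, 4 and 2 surrogate variables for cortex, striatum and cerebellum (sva 3.50.0), and its difference between regions over 54 libraries. DESeq2 1.42.0, other filters, scalings and covariates, and left-out mice or libraries were alternatives. The fits were checked on simulated counts. CPM were counts divided by the library's total over genes, adjusted by TMM factors over all 54 libraries, and scaled to counts-per-million. Per-kilobase values divided these by the merged exon length. An exact permutation test ran over 43758 splits of the mice, 3500 of which keep the genotype numbers of each litter.

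The mouse number pairs the regions of 1 animal. Median correlations of deviations from the group means were 0.164, 0.0914 and 0.0611 within mice (cerebellum and cortex, cortex and striatum, cerebellum and striatum) and -0.00896, -0.00607 and -0.00487 between mice. The members and lists were chosen with earlier results of these data known. By the rule for naming, every member is named except 1 that is not reported here, and full statistics go to the 4 largest called changes each way per WT contrast, and to members with an unadjusted p under 0.05 for genotype or its difference between regions. Promoter windows are RefSeq, GRCm38.p6.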

Additional observations from a re-analysis of the deposited data

Results flagged for a closer look

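Dixon's test was run on 104 groups of 8 or 10 libraries of the 19 receptor genes given in full, and 12 groups held a library that stood apart, where chance gives about 1 in 20. Of these, 7 were the Mbd5+/GT cerebellum library of M755, which was low in cerebellar markers and carried Hox counts. It was the highest of its group for Chrm1 (2.399 CPM, next 0.944), Chrna2 (2.37 CPM, next 0.563), Chrna3 (3.97 CPM, next 1.64), Chrna4 (50.7 CPM, next 9.29), Drd5 (2.05 CPM, next 0.817) and Htr5b (7.61 CPM, next 0.598), and the lowest for Htr1b (14.8 CPM, next 21.7). WT cerebellum M754, with the same 2 features, was the highest of its group for Htr5b (1.60 CPM, next 0.254).

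The WT striatum libraries low in striatal markers stood apart as the lowest of their group in 2 genes, M754 for Drd5 (1.33 CPM, next 3.22) and M761 for Oprd1 (2.19 CPM, next 7.55). The other groups were Chrne in Mbd5+/GT striatum, highest in M763 (1.97 CPM, next 0.336), and Chrnb4 in WT cortex, highest in M754 (0.874 CPM, next 0.285).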

How the results depend on the processing

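Counts of called receptors between regions stayed within 1.5 times of their first values under DESeq2, RLE scaling, no filter and a fit of all 54 libraries, and without each WT mouse in turn (27 to 32 for cerebellum against cortex, 24 to 27 for cerebellum against striatum, 6 to 10 for cortex against striatum). A minimum of 10 counts in every library, which drops members that are low in 1 region, left 15, 10 and 5 in WT mice (from 31, 25 and 9) and 13, 10 and 3 in Mbd5+/GT mice (from 27, 28 and 8) in the same order. Fewer members are tested under that filter, so the smaller counts are not losses of calls alone. Shares over all genes are not given in this section, so the counts here are not set against those of other genes. Cortex against striatum in Mbd5+/GT mice fell from 8 to 3 without litter 2 and to 4 without the libraries high in Gpr151.

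With the mouse as a replicate block the counts were 33, 26 and 8 in WT mice and 32, 29 and 9 in Mbd5+/GT mice in the same order, and 3, 0 and 2 for the genotype effect between cerebellum and cortex, cerebellum and striatum, and cortex and striatum (from 3, 1 and 3). Of the 3 between cerebellum and cortex, Chrna3 left under the block and Chrna2 entered. Without the libraries high in Gpr151 the first 2 were 0 and 0. Of the receptors given with full statistics between regions, the block ended the call of Drd3 (1.14, adjusted p = 0.15 by edgeR) and of no other.

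Members at an unadjusted p under 0.05 between genotypes were 8 in cortex at first, 5 with at least 10 counts, 3 by the permutation test, 4 without a filter, 5 without surrogate variables, 5 with the striatal covariate and 0 without the libraries high in Gpr151. In striatum the 3 became 1 by the permutation test, 0 with litter and sex, 5 without a filter, 1 without surrogate variables, 1 without the libraries high in Gpr151 and 5 without the low-marker libraries. In cerebellum the 3 became 1 by the permutation test, with litter and sex, and without surrogate variables. Neither the members tested nor the share of all genes at that p is given for these settings. The changes in count therefore cannot be read as particular to the receptors. Chrna7 in striatum turned positive by the permutation test (0.0788), with litter and sex (0.0764), without surrogate variables (0.032) and without litter 2 (0.0137). The cause was not tested. Of the values of single named receptors, 267 of those between regions kept their call and direction and 12 lost the call (5 of Drd3 and 7 of Chrna3). Between genotypes no receptor had an adjusted p under 0.05 in any setting, so no call could be lost. Alternatives that leave out libraries high in Gpr151, low in markers or with Hox counts, those that leave out single WT mice, and the striatal covariate were chosen after seeing the data. Members with under about 10 reads in a library, among them Drd3, Chrna10, Chrne and Chrna5 in cerebellum, were limited by depth.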
